A study of Homo sapiens with 8 samples.

Results

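The bone morphogenetic protein (BMP) ligands and target genes described here are 10 genes: the ligands BMP2, BMP4 and BMP7, the target transcription regulators ID1, ID2, ID3 and ID4, and the target-encoded inhibitors BAMBI, SMAD6 and SMAD7. They were taken by gene name from a combined transcript assembly that names 20195 reference genes, and 24 of its 96614 counted transcripts belong to them. Polyadenylated RNA of H1 cells, a human embryonic stem cell line, was read in full length on a PacBio Sequel II instrument, with 2 repeat libraries in each of 4 groups. The hPSC group was kept undifferentiated on Matrigel in mTeSR1. The mesoderm group received BMP4 protein at 100 ng/ml, VEGF at 100 ng/ml and bFGF at 10 ng/ml, with Activin A at 100 ng/ml for the first 24 hours. The endoderm group received Activin A at 100 ng/ml and WNT3A, whose dose is not printed because its unit in the labels is unclear, with no BMP in the listed medium, and both of these media held 0.5% fetal bovine serum. The ectoderm group received A83-01, PNU-74654 and Dorsomorphin, each at 2 µM, in 15% serum replacement. Harvest after 5 days is stated at the end of the ectoderm protocol and was read as holding for all 3 layers. Every group derives from the 1 line H1, and nothing in the labels says that repeats were separate cultures, so p-values measure the spread between these libraries only.

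BMP ligands are secreted dimers of the TGF-beta superfamily that bind pairs of type I and type II receptor kinases. The receptors phosphorylate SMAD1, SMAD5 and SMAD9, which enter the nucleus with SMAD4 and act on target genes. ID genes are direct targets in many cell types; their proteins bind E proteins such as TCF3, TCF4 and TCF12 and keep them from DNA. SMAD6, SMAD7 and the pseudoreceptor BAMBI are also induced by the pathway and dampen it. BMP4 drives the posterior primitive streak, extraembryonic mesoderm and amnion in early development, and blocking BMP receptors favours neural ectoderm. Dorsomorphin is an inhibitor of BMP type I receptors, A83-01 of the related Activin and TGF-beta type I receptors, and PNU-74654 of the binding of beta-catenin to TCF factors. The BMP4 of the mesoderm medium was added as protein, so BMP4 reads are transcripts of the cells' own gene.

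The promoter windows of 4 target genes are printed because their transcripts took different courses: ID1, ID4 and BAMBI were highest in mesoderm, whereas ID3 was lower there than in hPSC unless a length trend was removed. Each window holds 300 bases, from 250 before to 50 after the RefSeq start on GRCh38.p14, and is written 5′ to 3′ on the strand of the gene. Capitals mark GGCGCC, a GC-rich palindrome known to be bound by BMP-activated SMAD proteins, and TATAAA, the TATA box core. The windows lie at chr20:31605039-31605338 on the plus strand (ID1), chr6:19837120-19837419 on the plus strand (ID4), chr10:28677271-28677570 on the plus strand (BAMBI) and chr1:23559452-23559751 on the minus strand (ID3).
ID1: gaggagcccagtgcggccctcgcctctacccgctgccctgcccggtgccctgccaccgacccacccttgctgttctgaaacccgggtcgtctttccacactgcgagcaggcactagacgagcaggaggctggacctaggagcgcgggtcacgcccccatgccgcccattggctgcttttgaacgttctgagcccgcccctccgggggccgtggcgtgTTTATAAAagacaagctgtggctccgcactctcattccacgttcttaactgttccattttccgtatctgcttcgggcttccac
ID4: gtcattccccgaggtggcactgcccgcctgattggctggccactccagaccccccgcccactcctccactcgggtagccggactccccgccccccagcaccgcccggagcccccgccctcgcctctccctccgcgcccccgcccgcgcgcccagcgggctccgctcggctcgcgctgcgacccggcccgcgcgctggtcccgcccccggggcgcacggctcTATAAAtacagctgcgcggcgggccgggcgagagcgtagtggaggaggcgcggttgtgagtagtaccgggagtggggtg
BAMBI: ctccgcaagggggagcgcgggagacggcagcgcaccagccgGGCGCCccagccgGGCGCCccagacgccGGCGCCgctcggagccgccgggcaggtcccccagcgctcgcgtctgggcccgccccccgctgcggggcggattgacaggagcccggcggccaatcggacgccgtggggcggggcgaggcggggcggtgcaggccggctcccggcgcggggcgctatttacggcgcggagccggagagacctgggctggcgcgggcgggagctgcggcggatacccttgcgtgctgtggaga
ID3: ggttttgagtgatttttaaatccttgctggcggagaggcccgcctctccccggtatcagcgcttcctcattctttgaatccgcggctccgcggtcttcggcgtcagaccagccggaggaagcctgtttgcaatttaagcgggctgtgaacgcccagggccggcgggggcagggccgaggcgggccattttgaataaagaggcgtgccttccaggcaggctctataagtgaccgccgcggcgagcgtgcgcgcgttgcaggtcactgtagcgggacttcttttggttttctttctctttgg

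The RefSeq promoter table held windows for 8 of the 10 genes, all but BMP2 and BMP7. BAMBI's window held GGCGCC 3 times, with first bases at -209, -196 and -181 from the start. Another SMAD motif, GCCGNCGC, lay at -184 and overlapped the last of these. BMP4 held GGCGCC in 1 of its 3 windows, and the other genes with a window held none. None of the 3 BMP4 windows covers its most upstream assembled start, chr14:53956825, which supplied most BMP4 reads, so the promoter there was not searched. On both strands, GGCGCC was found in 19.19% and GCCGNCGC in 16.83% of the 34943 promoter windows of the table. The SMAD box CAGAC was found in 45.28% of all windows. Among the printed windows it lay at -189 and -140 in BAMBI, at -205 in ID4 and at -147 in ID3. TATAAA, a motif searched after these sequences had been seen, was in 11.57% of all windows. It lay at -31 in ID1, where it overlaps a copy on the other strand at -33, at -29 in ID4, and at -35 in a SMAD7 window that is not printed. A match describes these letters only. The assembled start of the most-read transcript was the RefSeq start for ID4, BAMBI and ID3 and lay 6 nt upstream of it for ID1.

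Library totals were between 503840 and 1180888 reads, the largest in ectoderm, so 3 reads correspond to between 2.12 and 7.45 reads per 1e6 of the TMM-scaled library size (normalised CPM, the unit of levels below). These limits cover counting error only. The 2 hPSC libraries differed from each other more than other repeats did, where chi-square over degrees of freedom between gene counts was 8.22, against 2.78 (ectoderm), 2.16 (endoderm) and 1.67 (mesoderm). Reads fell on the longest transcripts in ectoderm, where the mean length of the assembled transcript per read was 4406 and 4650 nt. That mean was between 2975 and 3840 nt in the other libraries. The lengths of the reads themselves were not measured here. Markers fitted the labels in part. Of 8 pluripotency markers tested, 8 fell in mesoderm, 6 in ectoderm and 5 in endoderm, where their summed level was 2970 and 2711 normalised CPM beside 4593 and 5446 in hPSC. Of all genes, 18.2% fell in mesoderm, 24.7% in ectoderm and 13.7% in endoderm. For the layers, 5 of 6 ectoderm markers tested rose in ectoderm, and all 7 endoderm markers tested rose in endoderm, where FOXA2 had 3 and 4 reads. Of all genes, 23.8% and 13.5% rose in these layers. In hPSC, 4 of the 6 and all 7 had 0 reads. Genes read almost only in 1 layer were tested only through it, so the counts of rises are descriptions. In mesoderm, TBXT had at most 1 read in a library, MIXL1, FOXF1 and MESP1 had none, while HAND1 (263 and 274 reads) and TBX3 (132 and 180 reads) were high and KDR fell (57 and 44 reads in hPSC, 1 in each mesoderm library; edgeR adjusted p 1.8e-06). No read of SOX1 was counted in ectoderm either, whereas PAX6 had 170 and 79 reads.

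Mesoderm had the highest mean level of BMP4, ID1, ID2, ID4 and BAMBI. Endoderm had the highest mean level of BMP2, BMP7, SMAD6, SMAD7 and ID3, though for BMP7 and SMAD7 its libraries overlapped those of mesoderm. In ectoderm none of the 10 genes was highest, and ID4 was the one gene whose level there exceeded that in endoderm by the test. In bulk RNA, fewer cells with a transcript and less transcript per cell cannot be told apart.

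**Figure D1:**
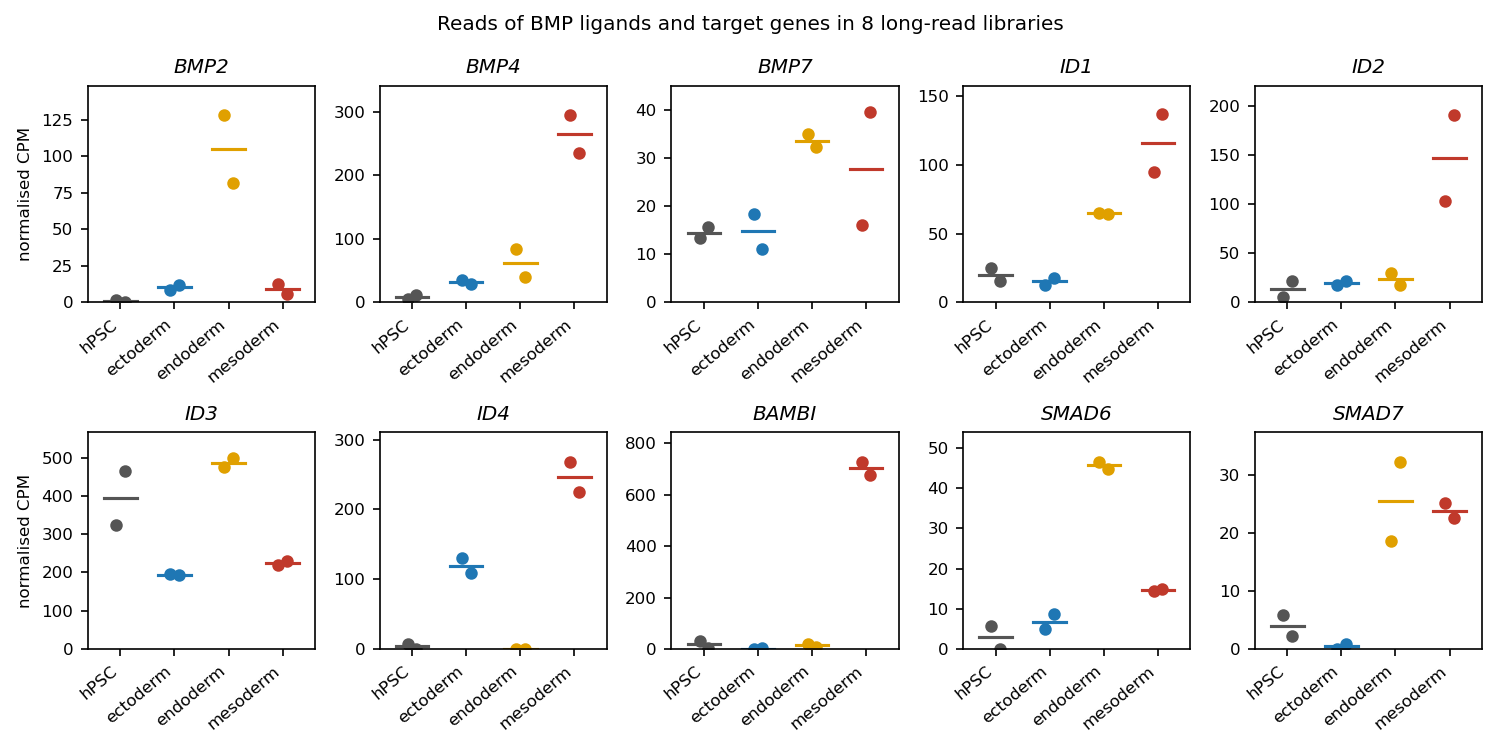
Normalised CPM (vertical axes, from 0) of the 10 genes in hPSC, ectoderm, endoderm and mesoderm; each point is 1 library and each line the mean of 2. BMP4, ID2, ID4 and BAMBI were highest in both mesoderm libraries, and BMP2 and SMAD6 in both endoderm libraries.

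Counts of genes past the threshold are given beside the share of all genes that passed it, since many genes differed between these cells. The test was edgeR's quasi-likelihood test over 10843 genes, with a Benjamini-Hochberg adjusted p under 0.05. Against hPSC, 7 of the 10 genes differed in mesoderm, 6 higher and 1 lower, where 35.1% of all genes differed (16.9% higher and 18.2% lower). Of these, BAMBI and SMAD7 had reads enough to be tested only through mesoderm, so their rise there was in part set by that filter. In endoderm 5 differed and all 5 were higher, beside 27.2% of all genes (13.5% higher). Of these, BMP2 and SMAD6 had reads enough to be tested only through endoderm, so their rise there was in part set by the filter. In ectoderm 5 differed, 3 higher and 2 lower, beside 48.6% of all genes (23.8% higher and 24.7% lower), so that share was at the background. Mesoderm exceeded ectoderm in 6 genes and was lower in none, beside 35.3% of all genes (17.2% higher). Between mesoderm and endoderm 7 differed, 4 higher and 3 lower in mesoderm, beside 47.1% of all genes (23.8% higher and 23.3% lower). Between ectoderm and endoderm 9 differed, 1 higher and 8 lower in ectoderm, beside 63.1% of all genes (33.1% higher and 30% lower). Counts that include a rise of BAMBI or SMAD7 in mesoderm, or of BMP2 or SMAD6 in endoderm, are therefore descriptions. The median log2 fold change of the 10 genes was 2.72 in mesoderm, 1.43 in endoderm and 0.29 in ectoderm against hPSC, and that of all genes was 0.01, -0.13 and -0.01.

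Scaling to library totals in place of trimmed means of M values (TMM) moved the median of all genes to 0.43 in ectoderm, -0.48 in endoderm and 0.25 in mesoderm against hPSC, and to 1.00 for ectoderm against endoderm. It changed the share of all calls that were higher from 49.1% to 68.2% in ectoderm, from 49.6% to 31.1% in endoderm and from 48.1% to 59.8% in mesoderm against hPSC. For mesoderm the share went from 48.7% to 36.7% against ectoderm and from 50.6% to 73.1% against endoderm, and for ectoderm against endoderm from 52.5% to 72.9%. Under library totals, the 10 genes gave 7 higher and 0 lower in mesoderm, 5 and 0 in endoderm, and 3 and 1 in ectoderm against hPSC. Mesoderm then gave 5 higher and 0 lower against ectoderm and 5 higher and 1 lower against endoderm, and ectoderm gave 1 higher and 4 lower against endoderm. Calls over all genes differed between fits as well. Member counts under alternatives, here and below, are therefore descriptions and are not read against a background share. Without hPSC repeat 1, mesoderm against hPSC gave 8 higher and 1 lower, and without hPSC repeat 2 it gave 5 higher and 0 lower. Without ectoderm repeat 2, 3 genes passed in ectoderm against hPSC, and without endoderm repeat 1, 6 passed in ectoderm against endoderm.

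**Figure D2:**
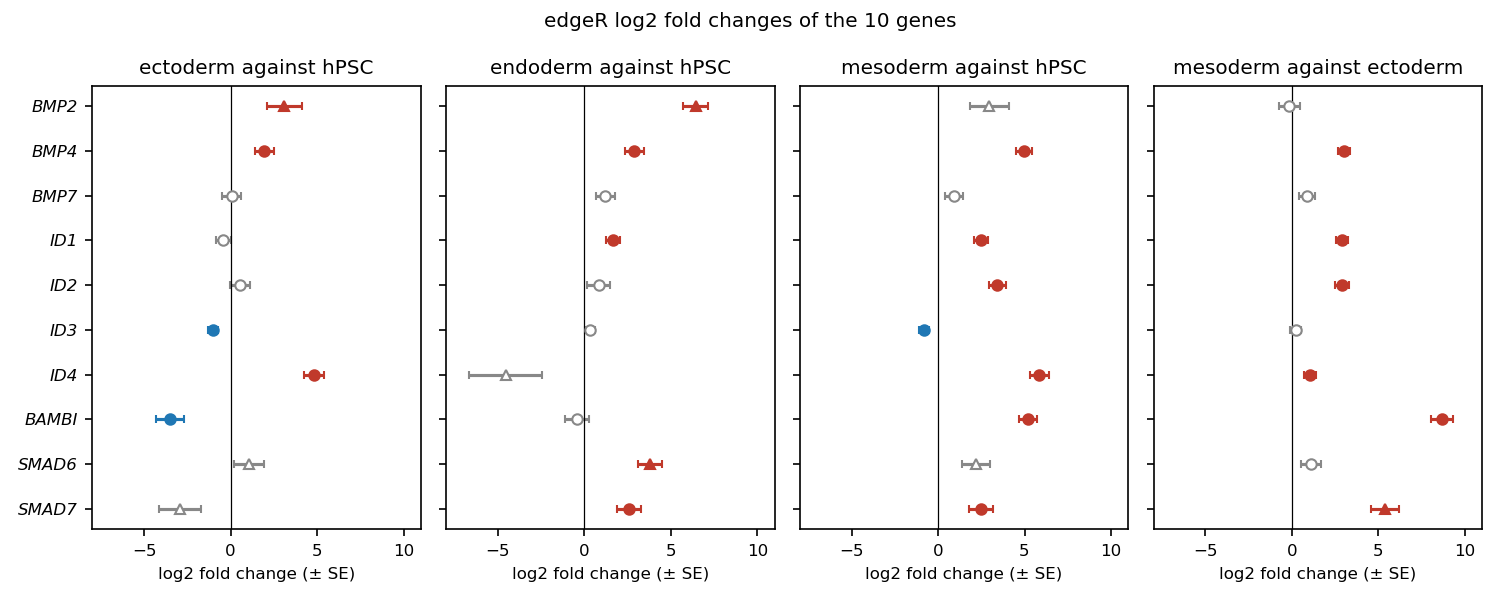
edgeR log2 fold changes (points) with standard errors (bars) of the 10 genes in 4 comparisons. Filled points passed the adjusted p of 0.05 (red higher, blue lower), open points did not, and triangles mark comparisons in which 1 group had 3 reads or fewer, whose fitted value is no estimate of size. Among genes that passed, mesoderm against ectoderm shows 6 genes to the right of 0 and none to the left.

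The ligands BMP4 and BMP2 were highest in different layers. BMP4 rose in all 3 layers and was highest in mesoderm, and BMP2 was highest in endoderm. BMP7 passed in 1 comparison only, between ectoderm and endoderm.

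BMP4 is the ligand that was also added to the mesoderm medium. The gene (ENSG00000125378.16) lies at chr14:53949736-53956825 on the minus strand of GRCh38. It had 3 and 5 reads in hPSC cells, 51 and 33 after ectoderm, 36 and 16 after endoderm and 165 and 125 after mesoderm differentiation. In normalised CPM these were 5.76 and 11.1, then 36.0 and 28.3, then 83.9 and 39.7, then 296 and 235. Every layer library stood above both hPSC libraries, and both mesoderm libraries stood above all others. Against hPSC the fitted fold was 31.4 in mesoderm (log2 4.97 ± 0.48 SE, edgeR adjusted p 1.92e-06), 7.37 in endoderm (2.88 ± 0.54, p 0.00113) and 3.84 in ectoderm (1.94 ± 0.54, p 0.00778). Mesoderm was 8.18-fold above ectoderm (edgeR adjusted p 1.3e-05) and 4.26-fold above endoderm (p 0.000337). These 5 differences passed under every alternative. Without endoderm repeat 1, the endoderm value was 2.24 against hPSC and that of mesoderm against endoderm 2.73. The step between ectoderm and endoderm was small (log2 -0.94 ± 0.39, edgeR adjusted p 0.0448) and was lost or turned under 11 of 17 alternatives. Without endoderm repeat 1 it was -0.30 (p 0.629), and it was also lost without ectoderm repeat 1 (p 0.0809) or 2 (p 0.204) or mesoderm repeat 1 (p 0.0625) or 2 (p 0.083). With library totals it was -0.14 (p 0.764), and with a trend on transcript length removed it turned to 0.06 (p 0.904). The order of the levels was therefore hPSC, then ectoderm and endoderm, then mesoderm.

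BMP2 (ENSG00000125845.7, chr20:6767686-6780246, plus strand) encodes the closest relative of BMP4. Its reads numbered 1 and 0 in hPSC cells, 12 and 14 after ectoderm, 55 and 33 after endoderm and 7 and 3 after mesoderm differentiation. Both endoderm libraries, at 128 and 81.9 normalised CPM, stood above all others, of which the highest had 12.5. Pooled over repeats, endoderm was 103-fold above hPSC (95% interval 18.0 to 4101, counting error only; edgeR adjusted p 1.29e-05). Endoderm was 10.2-fold above ectoderm (p 6.17e-06 by edgeR, adjusted) and 11.3-fold above mesoderm (p 4.13e-05). Ectoderm and mesoderm, whose libraries overlapped, did not differ beyond their spread (log2 -0.14 ± 0.59, edgeR adjusted p 0.88). Their ratios to hPSC were 9.77 (1.61 to 401) and 8.90 (1.27 to 386), with edgeR adjusted p of 0.0197 and 0.0534. The ectoderm call was lost without hPSC repeat 2 (adjusted p 0.0977), without ectoderm repeat 2 (0.0663) and in DESeq2 (0.0854), and the mesoderm value passed without hPSC repeat 1 (0.0397). Without hPSC repeat 2 the log2 value was 2.29 in ectoderm and 5.66 in endoderm, and without hPSC repeat 1 no hPSC read was left. Without mesoderm repeat 1, mesoderm against endoderm was -4.18.

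BMP7 (ENSG00000101144.13, chr20:57168740-57266641, minus strand), a ligand that can pair with BMP2 or BMP4 in a heterodimer, had 7 reads in each hPSC library. Ectoderm had 26 and 13 reads, endoderm 15 and 13, and mesoderm 9 and 21. The 2 mesoderm libraries, at 16.1 and 39.4 normalised CPM, spanned the endoderm values of 35.0 and 32.3. No layer passed against hPSC, where edgeR's adjusted p was between 0.11 and 0.948. Ectoderm was 2.23-fold below endoderm (log2 -1.16 ± 0.46, edgeR adjusted p 0.0373), a call lost under 8 of 16 alternatives, among them library totals (log2 -0.35, p 0.519) and the fits without ectoderm repeat 2 (p 0.205), endoderm repeat 1 (p 0.149) or endoderm repeat 2 (p 0.106).

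Long reads also showed which BMP4 transcripts were made. BMP4 was read as 5 transcripts with 1 common 3′ end. BMP4-201, with a first exon of 276 nt, had 225 reads over all libraries, and BMP4-206, which has the same start but a first exon of 67 nt, had 131. BMP4-202 and BMP4-205 begin 2273 and 3370 nt downstream and had 19 and 31 reads. The 4 reference transcripts carry 1 shared coding sequence in GENCODE 29, so they differ in their leaders. The fifth, with 28 reads, matches no reference transcript. Its first coding exon lacks 53 nt, chr14:53952177-53952229 on the minus strand of GRCh38, printed because the stretch holds the annotated start codon (capitals), 7 bases from its 5′ end.
BMP4 stretch: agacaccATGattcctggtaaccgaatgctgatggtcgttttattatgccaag

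The most upstream start supplied 82 of 84 BMP4 reads in ectoderm (97.6%, Wilson 95% interval 91.7 to 99.3), 45 of 52 in endoderm (86.5%, 74.7 to 93.3) and 252 of 290 in mesoderm (86.9%, 82.5 to 90.3). In hPSC it supplied 5 of 8. The transcript without the start codon made up 8 of 84 reads in ectoderm, 5 of 52 in endoderm and 14 of 290 in mesoderm (4.83%, 2.90 to 7.94). These intervals treat reads of 2 libraries as 1 sample and cover counting error only. Of the 24 transcripts of the 10 genes, 9 had reads enough to be tested among 12440. Of these 9, 6 differed in ectoderm against hPSC (beside 45.9% of all transcripts), 4 in endoderm (26.7%) and 7 in mesoderm (32.8%). Between layers, 6 differed for mesoderm against ectoderm (33.6%), 7 for mesoderm against endoderm (45.8%) and 5 for ectoderm against endoderm (62.6%). The transcripts of BAMBI and BMP4-206 had reads enough to be tested only through mesoderm, and that of BMP2 only through endoderm. Counts that include their rise there are descriptions. BMP4-201 and BMP4-206 were among the 9, and both rose in every layer. BMP4-201 had 3 reads in hPSC and 144 in mesoderm, a ratio of pooled CPM of 42.7 (14.3 to 210, 95% interval, counting error only; edgeR adjusted p 9.1e-06). BMP4-206 had 1 read in hPSC and 94 in mesoderm, a ratio of 83.6 (14.7 to 3338; edgeR adjusted p 1.7e-05). The choice between these 2 transcripts did not pass in any of the 6 comparisons (diffSpliceDGE adjusted p between 0.708 and 0.957, unadjusted p between 0.398 and 0.838), where the share of 2626 genes that passed was 5.64% in ectoderm, 5.06% in endoderm and 7.01% in mesoderm against hPSC. That share was 5.98% for mesoderm against ectoderm, 9.82% for mesoderm against endoderm and 14.7% for ectoderm against endoderm. BMP4 was the only one of the 10 genes with 2 transcripts deep enough for that test.

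**Figure D3:**
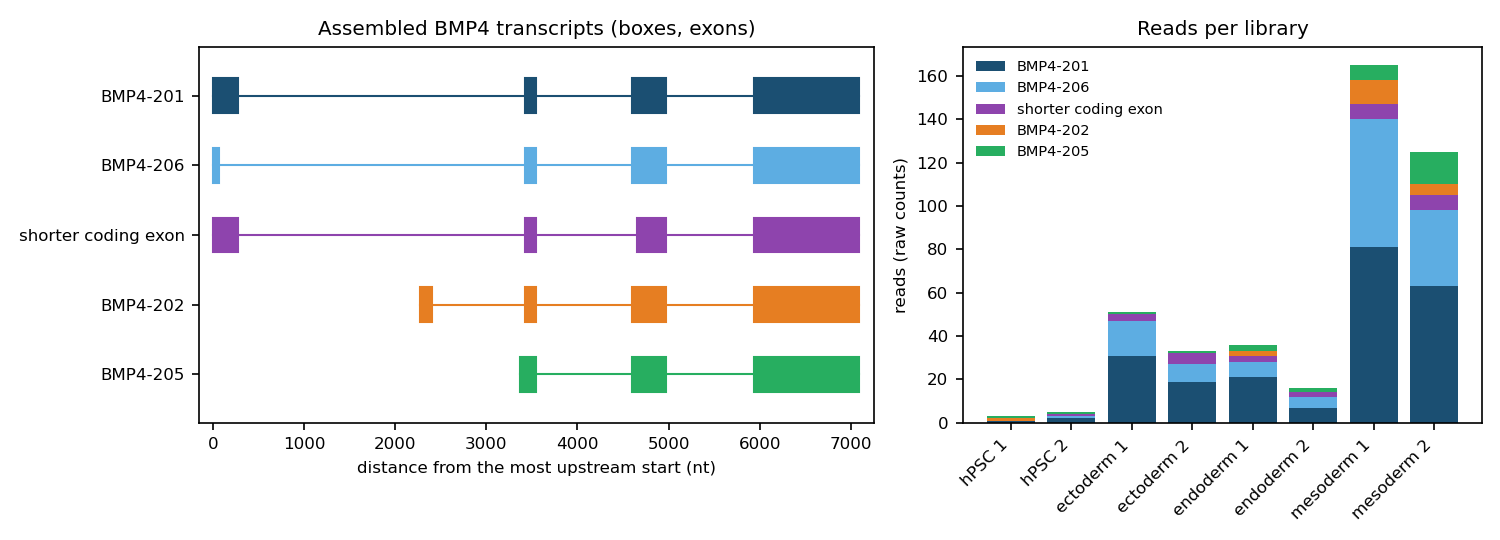
Left, exons (boxes) and introns (lines) of the 5 BMP4 transcripts by distance in nt from the most upstream start, in the direction of transcription. Right, raw reads of each transcript in each library, stacked: the 2 mesoderm libraries had 165 and 125 reads, mostly of BMP4-201 and BMP4-206.

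The 4 ID genes did not move as one. ID1, ID2 and ID4 rose in mesoderm and exceeded their ectoderm levels there. ID1 also rose in endoderm, ID4 rose in ectoderm, and ID3 was lower in ectoderm and mesoderm than in hPSC, a direction that turned with a length trend removed.

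ID1 (ENSG00000125968.9, chr20:31605283-31606515, plus strand), a widely used readout of BMP signalling, had 13 and 7 reads in hPSC cells, 18 and 21 after ectoderm, 28 and 26 after endoderm and 53 and 73 after mesoderm differentiation. These were 24.9 and 15.6, 12.7 and 18.0, 65.3 and 64.6, and 94.9 and 137 normalised CPM. The libraries fell into hPSC and ectoderm, which overlapped, then endoderm, then mesoderm. ID1 was 5.61-fold above hPSC in mesoderm (log2 2.49 ± 0.39, edgeR adjusted p 0.000182) and 3.15-fold in endoderm (1.65 ± 0.42, p 0.0087). Mesoderm was 7.54-fold above ectoderm (edgeR adjusted p 1.66e-05), and endoderm was 4.23-fold above ectoderm (p 0.000241, and 0.0773 with a length trend removed). Ectoderm did not pass against hPSC (log2 -0.43 ± 0.45, edgeR adjusted p 0.446), and the sign turned with library totals (0.02) and with a length trend removed (0.70). Mesoderm and endoderm were 1.78-fold apart and just missed the threshold (edgeR adjusted p 0.0526), which 6 of 17 alternatives passed. Most ID1 reads were of the spliced ID1-202, with 213 in all. ID1-201 keeps the 239-nt intron at chr20:31605814-31606052 and had 20 reads, 14 of 126 in mesoderm (11.1%, Wilson 95% interval 6.73 to 17.8) and 2 of 54 in endoderm (3.70%, 1.02 to 12.5). In hPSC it had 3 of 20 (15.0%, 5.24 to 36.0) and in ectoderm 1 of 39 (2.56%, 0.454 to 13.2), and these intervals overlap that of mesoderm.

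ID2 (ENSG00000115738.10, chr2:8682043-8684461, plus strand) is known, beyond its part in BMP responses, from early trophoblast and lymphoid development. It had 3 and 10 reads in hPSC, 25 in each ectoderm library, 13 and 7 after endoderm and 58 and 102 after mesoderm differentiation. At 104 and 192 normalised CPM, both mesoderm libraries stood above all others, none of which exceeded 30.3. Mesoderm was 10.8-fold above hPSC (log2 3.43 ± 0.50, edgeR adjusted p 0.000102), 7.52-fold above ectoderm (p 7.57e-05) and 6.11-fold above endoderm (p 0.000413). No pair among the other 3 groups passed for ID2, with edgeR adjusted p between 0.375 and 0.638. With a length trend removed, ectoderm passed against hPSC (log2 1.66, p 0.03). The mesoderm value against hPSC was 2.72 without hPSC repeat 1 and 4.63 without hPSC repeat 2.

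ID4 (ENSG00000172201.12, chr6:19837370-19842197, plus strand), which is known from neural progenitors, had the widest range of the 4. Neither endoderm library held a read of it, and hPSC had 4 and 0. Ectoderm had 184 and 127 reads and mesoderm 150 and 120. In normalised CPM ectoderm had 130 and 109 and mesoderm 269 and 225, with no overlap. ID4 was 57.8-fold above hPSC in mesoderm (log2 5.85 ± 0.57, edgeR adjusted p 3.07e-06) and 28.0-fold in ectoderm (4.81 ± 0.58, p 2.74e-05). Against endoderm, with 0 reads and a floor of 3 reads per library, mesoderm was at least 33.2-fold and ectoderm at least 16.0-fold higher (edgeR adjusted p 1.62e-06 and 4.37e-06). The 2.07-fold step from ectoderm to mesoderm (log2 1.05 ± 0.34, edgeR adjusted p 0.0283) was lost under 6 of 17 alternatives: library totals (p 0.0985), DESeq2 (0.0761), and the fits without ectoderm repeat 1 (0.0985) or 2 (0.204) or mesoderm repeat 1 (0.192) or 2 (0.126). Between endoderm and hPSC both groups were near the floor and no fold is given; the test passed only without hPSC repeat 2 (p 0.0253). Without that library, ID4 was 3.93 above hPSC in ectoderm and 4.98 in mesoderm on the log2 scale, and without hPSC repeat 1 no hPSC read was left.

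ID3 (ENSG00000117318.9, chr1:23557918-23559501, minus strand), a close relative of ID1, was well covered in every library. It had 169 and 209 reads in hPSC cells, 276 and 225 after ectoderm, 204 and 201 after endoderm and 122 and 123 after mesoderm differentiation. In normalised CPM hPSC had 324 and 465, ectoderm 195 and 193, endoderm 476 and 499, and mesoderm 219 and 231. The ectoderm and mesoderm libraries stood below all hPSC and endoderm libraries. ID3 was 2.03-fold lower in ectoderm (log2 -1.02 ± 0.29, edgeR adjusted p 0.00905) and 1.75-fold lower in mesoderm (-0.81 ± 0.29, p 0.0432) than in hPSC. Against endoderm, ectoderm was 2.51-fold lower (p 0.00107, edgeR adjusted) and mesoderm 2.17-fold lower (p 0.00621). These calls depended on the scaling. The mean transcript length of ID3 was 958 nt, the shortest of the 10 genes, and the mean transcript length per read was higher in ectoderm and mesoderm libraries. With a length trend removed, the log2 fold change was 0.14 in ectoderm (p 0.71) and 0.02 in mesoderm (p 0.976) against hPSC, and with library totals it was -0.54 in each (p 0.0627 and 0.0856). Against endoderm, the values with a length trend removed were -0.09 in ectoderm (p 0.785) and -0.22 in mesoderm (p 0.538). The mesoderm call against hPSC was lost or turned under 14 of 17 alternatives, among them each fit that left out 1 library except hPSC repeat 1 (p between 0.0729 and 0.193), and the ectoderm call was also lost without ectoderm repeat 1 (p 0.0654) or 2 (p 0.0737). The mesoderm call against endoderm was lost without mesoderm repeat 1 (p 0.0595).

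The 3 inhibitors differed between layers. BAMBI was far higher in mesoderm than elsewhere. SMAD6, summed over its transcripts, was highest in endoderm, where most of its reads matched no reference transcript. SMAD7 was higher in endoderm and mesoderm, which did not differ beyond their spread, than in the other groups. All 3 were lower in ectoderm than in endoderm.

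BAMBI (ENSG00000095739.11, chr10:28677521-28682932, plus strand) encodes a membrane protein that resembles a type I receptor without the kinase. Mesoderm had 407 and 360 reads of it, against 17 and 2 in hPSC, 9 and 3 in endoderm and 2 in each ectoderm library. At 729 and 676 normalised CPM, the mesoderm libraries were far above the next highest, hPSC repeat 1 with 32.6. Mesoderm was 36.2-fold above hPSC (log2 5.18 ± 0.51, edgeR adjusted p 2.53e-06), 48.3-fold above endoderm (5.59 ± 0.54, p 2.15e-06) and 405-fold above ectoderm (8.66 ± 0.63, p 1.5e-07). All 3 differences passed under 17 of 17 alternatives. The value against hPSC was 7.25 without hPSC repeat 1 and 4.42 without hPSC repeat 2, and that against endoderm was 6.53 without endoderm repeat 1. Ectoderm was 11.2-fold below hPSC (log2 -3.49 ± 0.81, edgeR adjusted p 0.00268), but without hPSC repeat 1 the value was -1.42 (p 0.339) and without hPSC repeat 2 it was -4.25. It was 8.40-fold below endoderm (edgeR adjusted p 0.00728), which was lost without endoderm repeat 1 (p 0.186), with library totals (p 0.0607) and with a length trend removed (p 0.0786). Endoderm did not pass against hPSC (log2 -0.42 ± 0.69, edgeR adjusted p 0.706), and its sign turned without hPSC repeat 1 (1.66) and without endoderm repeat 2 (0.13).

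SMAD7 (ENSG00000101665.10, chr18:48919853-48952018, minus strand), an inhibitory SMAD that acts on both the BMP and the Activin branch, had 3 and 1 reads in hPSC cells, 0 and 1 after ectoderm, 8 and 13 after endoderm and 14 and 12 after mesoderm differentiation. Endoderm (18.6 and 32.3 normalised CPM) and mesoderm (25.1 and 22.5) overlapped and stood above all libraries of the other groups. SMAD7 was 5.93-fold above hPSC in endoderm (log2 2.57 ± 0.71, edgeR adjusted p 0.0144) and 5.59-fold in mesoderm (2.48 ± 0.69, p 0.0117). Ectoderm had 1 read in all, so endoderm was 65.2-fold higher (95% interval 10.5 to 2696; edgeR adjusted p 4.56e-05) and mesoderm 61.5-fold higher (10.1 to 2523; p 0.000106). Ectoderm did not pass against hPSC (ratio 10.6 lower, 1.05 to 524; edgeR adjusted p 0.0596), and passed without hPSC repeat 2 (p 0.0463). The endoderm call against hPSC was lost in DESeq2 (p 0.0781) and without endoderm repeat 2 (p 0.132). The mesoderm call was lost in DESeq2 (p 0.0781), without hPSC repeat 2 (p 0.0509) and without mesoderm repeat 1 (p 0.0663) or 2 (p 0.051). Without hPSC repeat 1 these values were 3.41 and 3.32. Against ectoderm, the values of mesoderm and endoderm were 4.49 and 4.57 without ectoderm repeat 1, and without ectoderm repeat 2 no ectoderm read was left.

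SMAD6 (ENSG00000137834.15, chr15:66702265-66782846, plus strand), the inhibitory SMAD that acts mainly on the BMP branch, had 20 and 18 reads in endoderm, 8 in each mesoderm library, 7 and 10 in ectoderm, and 3 and 0 in hPSC. Endoderm, at 46.6 and 44.7 normalised CPM, was above every other library, and mesoderm had 14.3 and 15.0. Endoderm was 14.8-fold above hPSC (95% interval 4.69 to 74.8; edgeR adjusted p 0.000873) and 6.74-fold above ectoderm (p 0.000176). With reads listed only by position added, which number 5 and 10 in hPSC, the log2 values against hPSC were 2.28 in endoderm (edgeR adjusted p 0.000606), 0.82 in mesoderm (p 0.159) and -0.71 in ectoderm (p 0.208), and mesoderm was then 1.53 above ectoderm (p 0.00813). Without those reads, endoderm was 3.09-fold above mesoderm (log2 1.63 in size, edgeR adjusted p 0.0142), a call lost in DESeq2 (p 0.103), with library totals (p 0.121) and without endoderm repeat 1 (p 0.064) or 2 (p 0.0539) or mesoderm repeat 1 (p 0.0779) or 2 (p 0.0837). Mesoderm was 4.75-fold above hPSC (1.36 to 25.4) and just missed the threshold (edgeR adjusted p 0.0518), which it passed with library totals (p 0.0463) and without hPSC repeat 1 (p 0.00857), where no hPSC read was left. Without hPSC repeat 2, endoderm was 2.95 above hPSC on the log2 scale.

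Few SMAD6 reads were of the full reference transcript. SMAD6-201 had 2 of 38 reads in endoderm (5.26%, Wilson 95% interval 1.46 to 17.3), 5 of 17 in ectoderm (29.4%, 13.3 to 53.1) and 10 of 16 in mesoderm (62.5%, 38.6 to 81.5). By library, this protein-coding transcript had 1 read in each endoderm library, 2 and 3 in ectoderm, and 4 and 6 in mesoderm. Its reads were thus most in mesoderm, whereas those of the summed gene were most in endoderm. In endoderm 16 of 38 reads were of a single-exon transcript at chr15:66715864-66723773. It covers the third exon of SMAD6-201 (chr15:66716421-66716498) and sequence on both sides of it, which makes up most of its 7910 nt. Another 12 were of a transcript that starts at position 66704307, inside the first intron (chr15:66704076-66711667). The endoderm level of SMAD6 therefore rests on transcripts that match no reference transcript for 36 of 38 reads (94.7%, 82.7 to 98.5). No transcript of SMAD6 or SMAD7 had reads enough to be tested alone.

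Other genes of the pathway were taken from lists of ligands, receptors, signal-transducing SMADs, antagonists, SMAD regulators, other BMP-responsive genes and ID partners. The lists were chosen with earlier results of these data known. Some genes, among them GDF6, SMAD9, NOG and CHRD, had reads enough to be tested only through mesoderm. The rise of such genes in mesoderm was in part set by that filter. GDF6, a BMP-family ligand of the dorsal ectoderm and amnion, was the only one of 11 further ligands with enough reads to be tested. It had 34 and 54 reads in mesoderm and at most 1 in any other library, 78.3-fold above hPSC pooled over repeats (95% interval 13.7 to 3127; edgeR adjusted p 3.86e-05). Of 7 receptors and coreceptors tested, 2 rose in mesoderm (BMPR2 and ACVR2A), 1 in ectoderm (ACVR2B) and 0 in endoderm, beside 16.9%, 23.8% and 13.5% of all genes. The median over the 7 was 0.63 in mesoderm against 0.01 over all genes. With DESeq2 none of the 7 passed in any layer. Without hPSC repeat 1, 4 rose in ectoderm, 2 in endoderm and 3 in mesoderm, and without hPSC repeat 2 the mesoderm calls were 0 higher and 1 lower.

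The 4 signal-transducing SMADs were all tested, and 23.8% of all genes rose in ectoderm and 16.9% in mesoderm. SMAD5 rose in ectoderm (15 and 7 reads in hPSC, 183 and 150 in ectoderm; log2 2.51 ± 0.37, edgeR adjusted p 9.96e-05) and in mesoderm (30 and 44 reads; 1.59 ± 0.40, p 0.00649). SMAD9 had 0 reads in hPSC and 10 and 11 in mesoderm, at least 2.89-fold higher (edgeR adjusted p 0.00179). SMAD4, the common partner, rose in ectoderm (log2 1.27 ± 0.40, p 0.0158 by edgeR, adjusted), and SMAD1 did not pass against hPSC in any layer. Their median in ectoderm was 1.89 against -0.01 over all genes. With a length trend removed, and also without hPSC repeat 2, 1 of the 4 passed in ectoderm and 2 in mesoderm, and without hPSC repeat 1, 3 passed in mesoderm. SMAD5 and SMAD4 transcripts are long, with means of 6973 and 7470 nt.

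Secreted antagonists bind ligands outside the cell, and 7 of the 15 listed were tested. In mesoderm 4 rose (16.9% of all genes did): NOG, CHRD, FST and TWSG1. NOG had 0 reads in hPSC and 15 and 11 in mesoderm (at least 3.56-fold higher, edgeR adjusted p 0.00112), and CHRD had 0 in hPSC and 10 and 11 in mesoderm (at least 2.89-fold, p 0.00181). FST, which binds Activin as well as BMPs, had 3 and 0 reads in hPSC and 48 and 44 in mesoderm, a ratio of 27.3 (9.05 to 135; edgeR adjusted p 5.77e-05). In endoderm 3 rose, among them CER1, an antagonist of Nodal, WNT and BMP. CER1 had 974 and 1181 reads there against 0 in all other libraries (at least 390-fold above hPSC, edgeR adjusted p 3.47e-07). BMPER rose there too, with 27 and 33 reads against 0 and 2 in hPSC, 35.0-fold (9.28 to 296). CER1 and BMPER had reads enough to be tested only through endoderm, so their rise there was in part set by that filter. Of all genes, 13.5% rose in endoderm and 23.8% in ectoderm. In ectoderm only TWSG1 rose (log2 3.31 ± 0.53, edgeR adjusted p 0.000176), while 3 rose with library totals, 2 with a length trend removed, and 2 rose and 1 fell without hPSC repeat 2. The list's median was 2.20 in mesoderm (1.83 with genes at 0 in hPSC at their bound), 2.92 in endoderm and 1.75 in ectoderm.

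Of 8 regulators of SMAD turnover and corepressors tested, 4 rose and 1 fell in mesoderm, 4 rose and 1 fell in ectoderm, and 1 rose in endoderm. The shares of all genes that differed were 35.1%, 48.6% and 27.2%. SMURF1, SMURF2 and PPM1A rose in both mesoderm and ectoderm, CTDSP1 also in mesoderm and HIPK2 also in ectoderm. SMURF2, a ubiquitin ligase for BMP SMADs, rose in mesoderm (5 and 4 reads in hPSC, 31 and 30 in mesoderm; log2 2.57 ± 0.44, edgeR adjusted p 0.000414). The phosphatase gene CTDSP1 rose in endoderm (log2 3.20 ± 0.45, edgeR adjusted p 0.000103). TGIF1, a corepressor, fell in ectoderm (142 and 192 reads in hPSC, 111 and 64 in ectoderm; log2 -2.38 ± 0.33, edgeR adjusted p 6.19e-05) and in mesoderm (-1.11 ± 0.32, p 0.0146). With a length trend removed, ectoderm had 0 higher and 2 lower and mesoderm 3 higher and 1 lower, and with DESeq2 each had 2 higher and 1 lower.

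The other BMP-responsive genes moved most widely in mesoderm. Of 11 tested, 10 rose in mesoderm, 5 rose and 1 fell in endoderm, and 2 rose in ectoderm. Of all genes, 16.9%, 13.5% and 23.8% rose in these layers. HEY1, GATA2, TFAP2A, ZNF503, HAND1 and JUNB had reads enough to be tested only through mesoderm. Their rise there was in part set by that filter, so the mesoderm count is a description. The median fitted log2 fold changes of the 11 genes were 7.46, 3.82 and 0.52, and 5.38, 3.21 and 0.36 with genes at 0 reads in a group set at their bound. In mesoderm 11 of 11 were higher than in ectoderm. MSX2, a homeobox gene, had 2 and 0 reads in hPSC cells, 6 and 1 after ectoderm, 11 and 13 after endoderm and 186 and 153 after mesoderm differentiation. The ratio of mesoderm to hPSC was 151 (41.4 to 1250; edgeR adjusted p 5.03e-07). KLF6, a zinc finger gene, had 22 and 9 reads in hPSC and 323 and 262 in mesoderm (log2 4.08 ± 0.37, edgeR adjusted p 1.18e-06). ZNF503 had 0 reads in hPSC and 36 and 23 in mesoderm (at least 8.07-fold higher, edgeR adjusted p 4.21e-05). HEY1 had 113 and 120 reads in mesoderm and at most 2 in any other library. The mesoderm count of 10 against hPSC was the same with library totals, with a length trend removed and with DESeq2, and that of 11 against ectoderm was then 9, 10 and 9.

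Of the 3 ID partners tested, TCF4 and TCF12 rose in ectoderm and TCF4 in mesoderm, and TCF12 fell in endoderm (log2 -1.34 ± 0.46, edgeR adjusted p 0.0404), a call lost with DESeq2, with a length trend removed and without hPSC repeat 1. The shares of all genes that differed were 48.6%, 35.1% and 27.2% in ectoderm, mesoderm and endoderm. TCF12 had 21 and 15 reads in hPSC cells, 364 and 365 after ectoderm, 5 and 7 after endoderm and 35 and 38 after mesoderm differentiation (ectoderm against hPSC log2 2.94 ± 0.33, edgeR adjusted p 1.16e-05). TCF4 was 4.33 ± 0.41 above endoderm in mesoderm on the log2 scale (edgeR adjusted p 1.39e-06). TCF3 did not pass against hPSC in any layer.

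**Figure D4:**
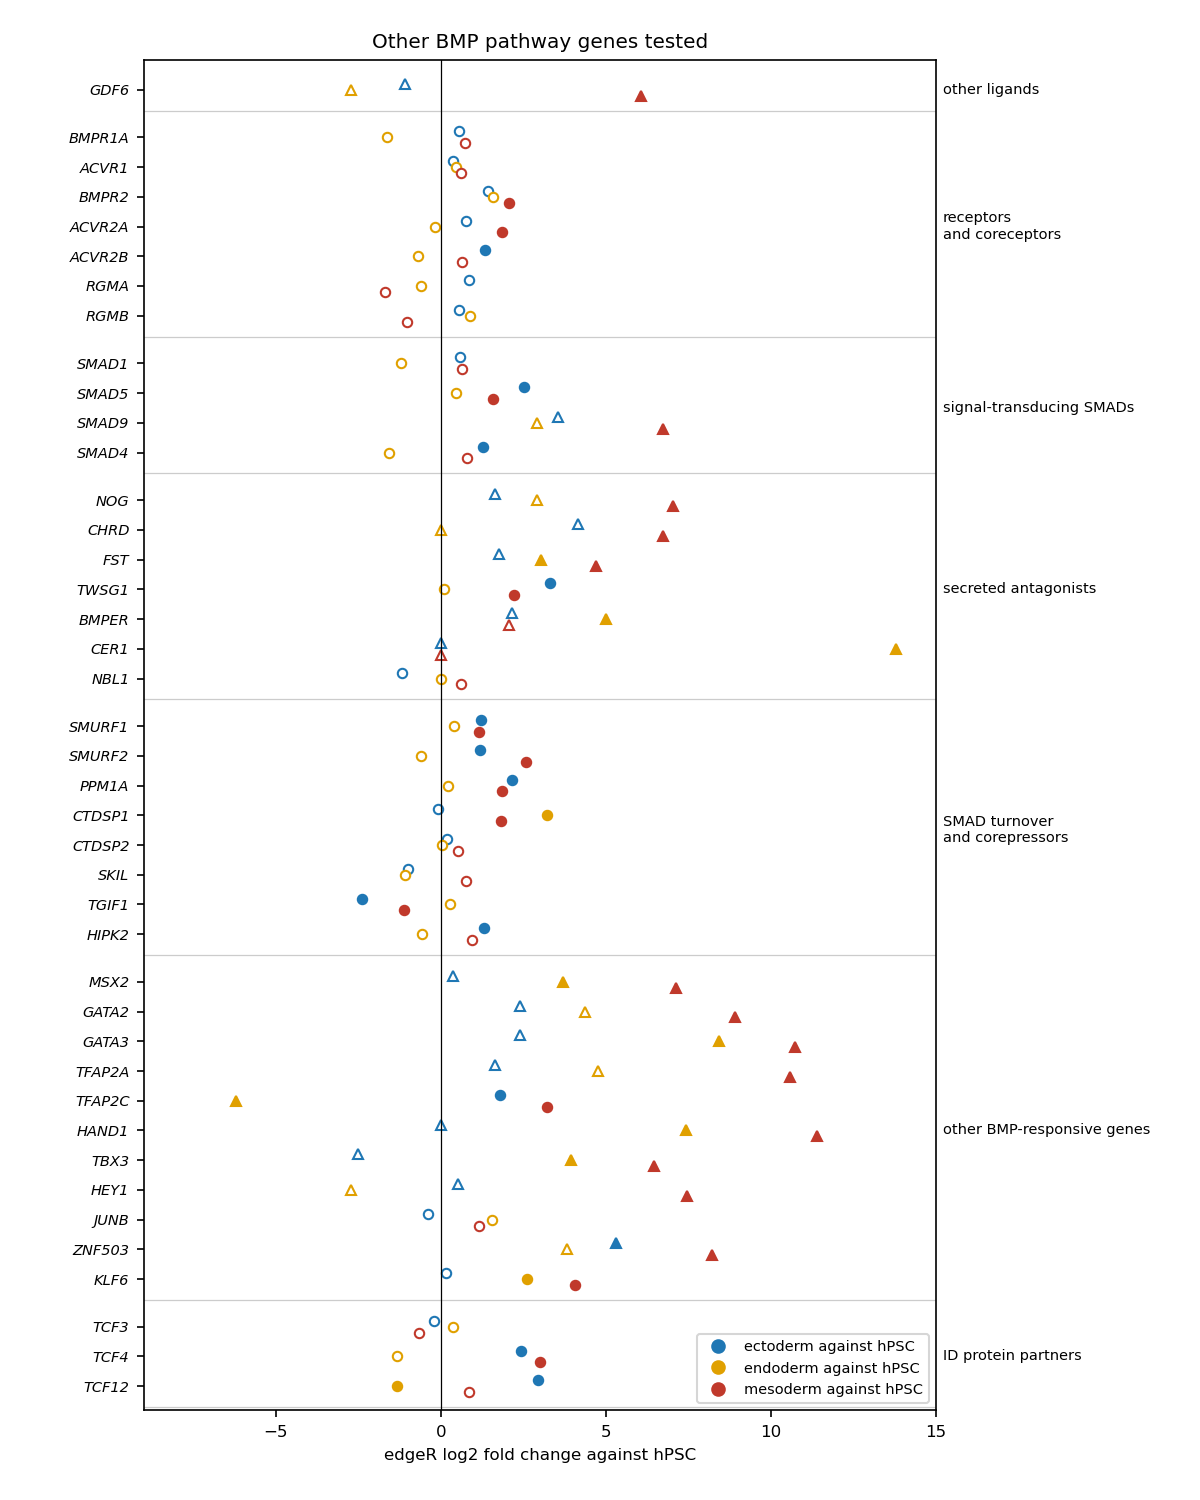
edgeR log2 fold changes against hPSC (horizontal axis) of the other pathway genes tested, by list; blue ectoderm, orange endoderm, red mesoderm. Filled points passed the adjusted p of 0.05, and triangles mark a group with 3 reads or fewer, whose fitted value is no estimate of size. Of the 11 other BMP-responsive genes, 10 passed to the right of 0 in mesoderm.

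Markers of amnion and trophoblast moved with the mesoderm values. Of 15 listed, 13 were tested and all 13 were higher in mesoderm than in hPSC, ectoderm and endoderm, and all 15 had reads in both mesoderm libraries. Of all genes, 16.9%, 17.2% and 23.8% were higher in these comparisons. Among the 13, 7 had 0 reads in hPSC, 5 in ectoderm and 7 in endoderm. Genes read almost only in mesoderm were tested only through it, and the list was chosen with earlier results known. The count is therefore a description. Their summed level was 7222 and 7814 normalised CPM in mesoderm, 159 and 99.3 in endoderm, 84.4 and 24.5 in hPSC, and 71.4 and 54.8 in ectoderm. GABRP, an amnion marker, had 2269 and 2355 reads in mesoderm. Of the 15, 5 (TFAP2A, TFAP2C, GATA2, GATA3 and HAND1) are also among the other BMP-responsive genes. The summed level of the mesoderm markers, which include BMP4 itself, was 1032 and 1123 in mesoderm and 223 to 296 in endoderm, with 3 of its 10 genes, MIXL1, MESP1 and FOXF1, at 0 in both mesoderm libraries. The part of these cell types in the levels of BMP4, ID1, ID2, ID4 and BAMBI was not tested.

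Genes whose pattern over the 4 group means of log2 CPM was most like that of 3 members were found among 9482 tested genes with at least 20 CPM in their highest group. For BMP4 the nearest was FST, with a root-mean-square difference of 0.19, followed by CCDC92 (0.20) and PKP2 (0.27). CTSB was nearest to ID1, at 0.10, and ACAA1 to SMAD7, at 0.05. Reads of FST were 17 and 11 in ectoderm and 16 and 6 in endoderm, and mesoderm exceeded endoderm by 1.67 ± 0.45 on the log2 scale (edgeR adjusted p 0.00651), beside 2.09 ± 0.36 for BMP4. With 4 points from shared libraries, such a likeness is a description.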

How the data were processed

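The authors deposited whole raw counts of reads per assembled transcript for a combined assembly, with no normalization. The deposited endoderm columns are listed under estimated counts because of their column names; they also hold whole raw counts, and nothing was rounded. Assembly used StringTie, per the file headers, and the submitters' processing notes also name minimap2, GRCh38 and hg38. All 15 multi-exon reference transcripts of the 10 genes have the same introns in GENCODE 29 on GRCh38. Versions, the counter and the use of strand are not given in the sources used here.

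A gene count is the sum over its named transcripts. Tests used edgeR 4.0.16 under R 4.3.3 (TMM, the filterByExpr minimum count of 10 in the smallest group, 1 quasi-likelihood fit over 8 libraries, Benjamini-Hochberg at 0.05, two-sided). The SE is the log2 fold change divided by the square root of F. Where a group had 1 to 3 reads, the ratio of pooled CPM has an exact conditional binomial 95% interval; at 0 reads the fold is a bound at 3 reads per library, taking the higher floor. Transcripts were tested likewise, and their choice with diffSpliceDGE. Alternatives include DESeq2 1.42.0, library totals, a lowess trend on transcript length (span 0.3) and leaving out each library. The fit was tested on simulated data. Motifs were searched in RefSeq promoter windows. All 10 members were named in full, pathway genes could be named where they passed in any comparison, and single marker genes were named after their values were seen; the members and gene lists were chosen with earlier results of these data known. A likeness is the smallest difference of centred group means of log2 CPM (prior count 2).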

Additional observations from a re-analysis of the deposited data

Results flagged for a closer look

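Reads counted at the genes only by position, in transcripts inside an intron or nearby that the assembly does not name for the gene, stayed outside the gene counts. They are given where both libraries of a layer had more than 3 reads and stood above both hPSC libraries. At BMP2, 1 such transcript had 3 reads in each endoderm library and 0 in hPSC, which does not pass that minimum. At BMP7, 2 such transcripts had 1 and 3 reads in hPSC and 6 in each mesoderm library, where their mean was 11.01 normalised CPM. At SMAD6, 4 such transcripts had 19 and 18 reads in endoderm, beside 5 and 10 (hPSC), 5 and 7 (ectoderm) and 11 and 9 (mesoderm). Their mean in endoderm was 44.49 normalised CPM, beside 45.7 for the counted SMAD6 transcripts.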

How the results depend on the processing

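Of 60 pairs of gene and comparison, 39 passed, and 25 of these passed in the same direction under every alternative run. Of the other 14, 3 turned under an alternative, and of the 21 that did not pass, 12 turned under one. With a length trend removed, the log2 fold change of ID3 was 0.14 in ectoderm and 0.0152 in mesoderm against hPSC and -0.12 in mesoderm against ectoderm. ID1 and BMP7 in ectoderm against hPSC turned to 0.70 and -0.57, and BMP4 and ID2 in ectoderm against endoderm to 0.0619 and 0.92. With library totals, ID1 in ectoderm against hPSC was 0.0196, ID3 in endoderm against hPSC -0.030 and in mesoderm against ectoderm -0.000598, and ID2 in ectoderm against endoderm 0.51. BMP7 and SMAD7 in mesoderm against endoderm were then 0.32 and 0.52. SMAD7 in that comparison was 0.0196 with only the 2 groups fitted and 0.24 with reference transcripts only. SMAD6 in ectoderm against hPSC was -0.71 with reads listed by position added. Leaving out each library gave from -0.37 to 0.34 for BMP7 and from -0.20 to 1.72 for ID2 in ectoderm against hPSC. It gave from -1.35 to 1.66 for BAMBI and from -5.49 to 0.00 for ID4 in endoderm against hPSC, and from -0.83 to 0.24 for BMP2 in mesoderm against ectoderm. In mesoderm against endoderm it gave from -1.05 to 0.23 for BMP7 and from -0.44 to 0.35 for SMAD7, and from -0.63 to 0.16 for ID2 in ectoderm against endoderm. The cause was not tested.

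DESeq2 called 3354, 1838 and 2321 genes in ectoderm, endoderm and mesoderm against hPSC and 2019 in mesoderm against ectoderm, where edgeR called 5266, 2944, 3808 and 3832. A minimum count of 30, which tests fewer genes, left 3405, 2532 and 4346 genes in ectoderm and mesoderm against hPSC and ectoderm against endoderm (edgeR 6842 in the last). Fitting only 2 groups left 2470 genes in mesoderm and 3 of the 10 genes in ectoderm against hPSC. Of the 10 genes, a minimum count of 30 left 3 in endoderm against hPSC, and it, library totals and the length trend each left 5 in ectoderm against endoderm. A minimum count of 5 called 11 of the genes' transcripts in mesoderm against ectoderm, against 6. Leaving out each library gave 3344 to 5752, 1478 to 3870 and 1962 to 4876 genes in ectoderm, endoderm and mesoderm against hPSC. It gave 1845 to 5234 in mesoderm against ectoderm, 3340 to 6087 in mesoderm against endoderm, 3 to 5 of the 10 genes in ectoderm against hPSC, and 1 to 5 transcripts of the 10 genes in endoderm against hPSC. A group left with 1 library was assumed to vary like the others.

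Repeat numbers were not taken as pairs in the main fit. Deviations of same-numbered repeats correlated between -0.03 and 0.15 over 6 pairs of groups, highest for hPSC and endoderm. With 2 libraries a group this cannot exclude shared handling, which the labels do not state. With the repeat number as a block, 9, 5, 5, 6, 7 and 6 of the 10 genes passed in ectoderm against endoderm, ectoderm and endoderm against hPSC, mesoderm against ectoderm, endoderm and hPSC; ID3 in mesoderm against hPSC was the call lost (adjusted p 0.0624). Depth limits SMAD6, SMAD7, BMP2 and BMP7 most, since none exceeded 55 reads in a library.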

Other observations

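Pathway genes too thinly read to be tested are given here as reads, chosen after their values were seen. BMPR1B, a type I receptor gene, had 4 reads in each ectoderm library and 0 elsewhere. The homeobox gene MSX1 had 3 and 5 reads in mesoderm and 0 elsewhere. DLX5, another homeobox gene, had 7 and 15 reads in endoderm, 10 and 5 in ectoderm, 4 and 5 in mesoderm and 0 in hPSC.

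Reads listed at the 10 genes, those listed only by position included, were also compared with those from the assembly made for each group alone. Of 80 values, 62 were equal and 75 were within 5 reads. The 5 others were of SMAD6, where the group assemblies had 0 reads in both hPSC libraries against 8 and 10 in the combined assembly, and up to 12 fewer in endoderm.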
